A study of Mus musculus with 2 samples.

Results

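The genes examined were 10 regulators of histone acetylation: the class I histone deacetylases *Hdac1*, *Hdac2*, *Hdac3* and *Hdac8*, the class IIa deacetylases *Hdac4*, *Hdac5* and *Hdac7*, the class IIb deacetylase *Hdac6*, and the acetyltransferases *Crebbp*, which encodes CBP, and *Ep300*, which encodes p300. They were taken by symbol, by no rule on their values, though with earlier results of these data known, and all 10 were found among the 48321 genes of the count tables. The tables hold 2 libraries, replicate 1 and replicate 2, of 1 group: mature thymocytes sorted as CD4- from MHC-II0:CD8ab Tg mice on the C57Bl/6 background. Both libraries share every allele of the line. The mice are deficient in I-Aβ and so in MHC class II molecules, both endogenous *Cd8* genes are disrupted, and CD8α and CD8β come from cDNAs placed in *Rosa26* that are switched on by Cre driven from *Cd4* regulatory sequences, so the transgenes are active in thymocytes from the stage at which *Cd4* is expressed. The titles of the libraries call the cells CD4-CD8-, whereas the cell type field calls them CD8+. Whether each library came from 1 mouse or several, and their age, are not given in the sources used here. Wild-type libraries were not analysed here, so the results are levels in 1 genotype and their spread over 2 libraries, and no effect of the genotype was tested.

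Histone acetyltransferases add acetyl groups to lysines of histone tails, which loosens chromatin and recruits bromodomain proteins, and histone deacetylases remove them. CBP and p300 are large, closely related coactivators that acetylate histone H3 at enhancers and promoters and bind many transcription factors. HDAC1 and HDAC2 are the catalytic subunits of the Sin3, NuRD and CoREST corepressor complexes, and HDAC3 is that of the NCoR complex. Class IIa enzymes work mainly as signal-controlled repressors: they hold MEF2 factors inactive until kinases phosphorylate them and 14-3-3 proteins carry them out of the nucleus. In thymocytes HDAC7 is known as the class IIa enzyme that restrains *Nr4a1* until TCR signals export it. HDAC6 acts mostly in the cytoplasm on tubulin, and HDAC8 on the cohesin subunit SMC3.

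The classes can be read from a short stretch of the catalytic domain. Class I and IIb enzymes carry a tyrosine that takes part in catalysis, and class IIa enzymes of vertebrates carry a histidine there, which leaves them with very low activity on acetylated histone lysines. The 30 bases of coding sequence around the codon aligned with that tyrosine of *Hdac1* follow, taken from the principal transcripts of GENCODE M21 (GRCm38, which is mm10) and written 5′ to 3′ on the coding strand, with the codon in capitals, because they show which enzymes of the RNA pool belong to which catalytic type.
*Hdac1*: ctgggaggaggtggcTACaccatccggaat
*Hdac2*: ctcggtggaggaggcTACacaatccggaat
*Hdac8*: ttaggaggaggaggcTATaaccttgccaac
*Hdac6*: tccctggagggtggcTATaacctccgtgcc
*Hdac4*: gcccttgagggaggcCATgacctgacagcc
*Hdac5*: gccctggagggaggcCATgacttgaccgcc
*Hdac7*: gccttagagggtggaCATgacctcacggcc
The windows lie at chr4:129518889-129518918 (minus strand) for *Hdac1*, chr10:36997042-36997071 (plus) for *Hdac2*, chr1:91945948-91945977 (minus) for *Hdac4*, chr11:102196587-102196616 (minus) for *Hdac5* and chr15:97796146-97796175 (minus) for *Hdac7*, each within 1 coding exon. Those of *Hdac8* and *Hdac6* cross an intron on the X chromosome. TAC or TAT, the codons for tyrosine, stood in the class I and IIb genes, and CAT, a codon for histidine, stood in all 3 class IIa genes. The codon of *Hdac3* also encoded tyrosine, at residue 298, counted from the first methionine. For *Hdac6* the window is in the first of its catalytic domains.

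The cells carried the RNA of T cells. Reads on genes numbered 16732644 in replicate 1 and 16245849 in replicate 2, and levels are given as CPM, the count divided by this total and scaled to 1e6 reads. The 5 T-cell markers, *Cd3d*, *Cd3e*, *Cd3g*, *Lck* and *Trbc2*, had mean levels from 261 to 810.9 CPM. Of the genes of CD4+CD8+ thymocytes, *Rag1*, *Rag2*, *Ptcra* and *Cd4* had at most 27 counts in either library, while *Dntt* was at 13.2 CPM. Markers of other cells were low: B-cell markers summed to 1.73 and 1.23 CPM in replicates 1 and 2, dendritic markers to 0.359 and 0.492 CPM, myeloid markers to 11.8 and 12.99 CPM (most of it *Csf1r*), and thymic epithelial markers to 3.17 and 3.51 CPM, with both globin genes at 0 counts. The detection floor, set at 3 counts, equals 0.179 CPM in replicate 1 and 0.185 CPM in replicate 2, and every gene of the 10 was far above it.

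All 10 genes were detected in both libraries, and their levels spanned a wide range. To set genes side by side, CPM was divided by the length of all annotated exons of a gene merged (CPM per kb). On this scale the means ran from 2.52 CPM per kb for *Hdac8* to 50.0 CPM per kb for *Hdac7*, with a median of 11.1, against a median of 5.71 CPM per kb over 11833 protein-coding genes with at least 10 counts. The order from the top was *Hdac7*, *Hdac1*, *Hdac2*, *Ep300*, *Hdac3*, *Crebbp*, *Hdac5*, *Hdac4*, *Hdac6* and *Hdac8*. Neighbours in this order did not overlap between the libraries, with the exception of *Hdac6* and *Hdac8*. Merged exons include retained introns and long ends, so the order by the principal transcript is given as well, after the single genes. In bulk RNA, fewer cells that transcribe a gene and less RNA per cell cannot be told apart.

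**Figure D1:**
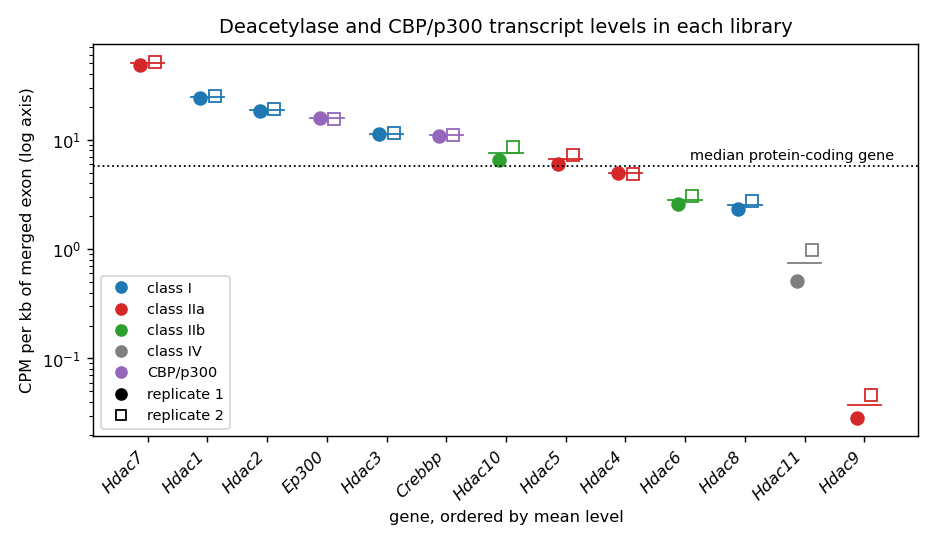
Levels of the 10 genes and of the related *Hdac9*, *Hdac10* and *Hdac11* in CPM per kb of merged exon (log axis), with a filled circle for replicate 1, an open square for replicate 2 and a bar at the mean; colours mark the class. The libraries lie close together for most genes, and *Hdac7* stands above the rest at 50.0 CPM per kb. *Hdac4*, *Hdac6* and *Hdac8*, and the related *Hdac9* and *Hdac11*, fall under the dotted line at the median protein-coding gene (5.71 CPM per kb).

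Among the class I enzymes, *Hdac1* and *Hdac2*, the interchangeable catalytic subunits of Sin3, NuRD and CoREST, had nearly the same counts. *Hdac1* (ENSMUSG00000028800.15, chr4:129516104-129542713, minus strand, 14 exons in the principal transcript) had 1382 counts in replicate 1 and 1409 in replicate 2, or 82.6 and 86.7 CPM. Its mean was 84.7 ± 2.93 CPM (SD, n = 2) and 24.6 ± 0.849 CPM per kb, at percentile 85.6 of protein-coding genes. *Hdac2* (ENSMUSG00000019777.16, chr10:36974544-37001889, plus strand) had 1373 and 1386 counts, or 82.1 and 85.3 CPM, with a mean of 83.7 ± 2.30 CPM and 18.7 ± 0.515 CPM per kb (SD, n = 2). In neither library did the 95% Wilson intervals of the CPM of *Hdac1* and *Hdac2* separate: in replicate 1 they were 78.4 to 87.1 and 77.8 to 86.5 CPM. Such intervals hold counting error alone, because PCR copies cannot be recognised in reads that carry no molecular identifier.

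The ratio of the paralogues depended on how the length of *Hdac1* is counted. Per kb of merged exon *Hdac1* was 1.31 ± 0.009 times *Hdac2* (SD, n = 2). Per kb of the principal transcripts, which are of like length at 2038 and 2005 bases, the ratio was 0.995, and the levels were 41.5 and 41.7 CPM per kb. *Hdac1* also has near-identical copies elsewhere in the genome. The processed pseudogene *Gm10093* (chr17:78491582-78493025, plus strand) matched the *Hdac1* transcript at 1435 of 1444 aligned bases, and the 30 bases around the tyrosine codon printed above were the same in both. Of the 1989 windows of 50 bases, the length of the reads, in the principal transcript of *Hdac1*, 58.7% also occurred in other genes, 1121 of them in *Gm10093*, and all of these windows began in the coding part. *Hdac2* had no such window. Reads that align to several places are not in the gene counts. When only the windows found in no annotated transcript of another gene were counted as length, the ratio of *Hdac1* to *Hdac2* became 2.41. Sequence outside annotated transcripts was not searched for these windows. The count on *Gm10093* itself was 177 in replicate 1 and 180 in replicate 2, or 10.8 ± 0.355 CPM (SD, n = 2). Over the lengths tried, the ratio thus ran from 0.995 to 2.41.

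**Figure D2:**
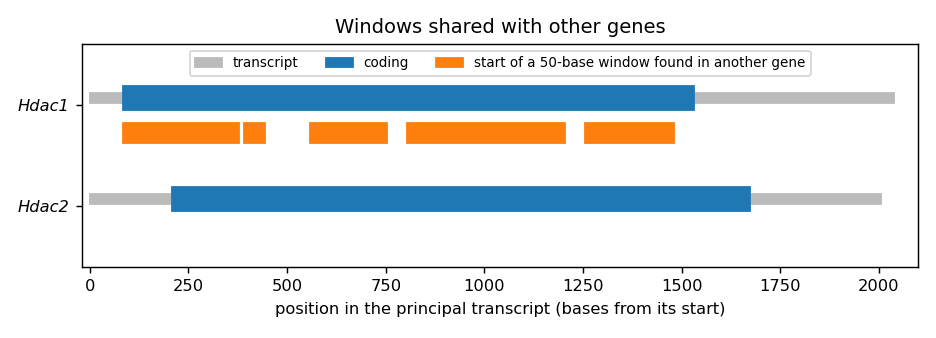
Principal transcripts of *Hdac1* and *Hdac2* drawn to scale (grey, with the coding part in blue), and below each the starts of the 50-base windows that also occur in another gene (orange), by position in bases from the start of the transcript. *Hdac1* has 1167 such starts, from position 85 to 1479 and all within its coding part, and *Hdac2* has 0.

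*Hdac3*, the catalytic subunit of NCoR, and *Hdac8* were lower. *Hdac3* (chr18:37935844-37955016, minus strand) had 765 and 752 counts, or 45.7 and 46.3 CPM, with a mean of 46.0 ± 0.403 CPM and 11.3 ± 0.099 CPM per kb (SD, n = 2). *Hdac8* (chrX:102284639-102505359, minus strand) had 187 and 215 counts, or 11.2 and 13.2 CPM, with a mean of 12.2 ± 1.46 CPM and 2.52 ± 0.301 CPM per kb (SD, n = 2). *Hdac3* was thus 4.53 ± 0.501 times *Hdac8* per kb of merged exon and 3.62 times per kb of the principal transcript. In translated sequence *Hdac1* and *Hdac2* are 87.0% identical, *Hdac1* and *Hdac3* 60.9% and *Hdac1* and *Hdac8* 44.0%.

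In class IIa, *Hdac7* stood far above its paralogues. *Hdac7* (ENSMUSG00000022475.19, chr15:97792664-97844502, minus strand, 24 exons in the principal transcript) had 5467 counts in replicate 1 and 5667 in replicate 2, or 326.7 and 348.8 CPM. Its mean was 337.8 ± 15.6 CPM and 50.0 ± 2.31 CPM per kb (SD, n = 2), at percentile 94.3 of protein-coding genes. No other of the 10 genes reached this CPM in either library, and per kb none did with the merged exons, the longest transcripts or the principal transcripts, whereas *Hdac1* was above it, at 103.0 against 80.9 CPM per kb, when windows of the principal transcript shared with other genes were left out.

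*Hdac4* and *Hdac5* lay near the median protein-coding gene per kb of merged exon, at percentiles 46.7 and 53.8. By CPM they were at percentiles 78.3 and 71.2. *Hdac4* (chr1:91928779-92195699, minus strand) had 1307 and 1257 counts, or 78.1 and 77.4 CPM, with a mean of 77.7 ± 0.521 CPM and 4.92 ± 0.033 CPM per kb (SD, n = 2). *Hdac5* (chr11:102194432-102230166, minus strand) had 890 and 1038 counts, or 53.2 and 63.9 CPM, with a mean of 58.5 ± 7.57 CPM and 6.67 ± 0.862 CPM per kb (SD, n = 2). Per kb *Hdac7* was 10.2 ± 0.539 times *Hdac4* and 7.54 ± 0.628 times *Hdac5*, and by the principal transcripts 8.34 and 5.20 times. *Hdac4* was 0.744 ± 0.101 times *Hdac5* per kb of merged exon, with 0.815 in replicate 1 and 0.672 in replicate 2. Its CPM was higher, but its merged exons are 15.8 kb long against 8.78 kb. By the longest and the principal transcripts the ratio was 0.894 and 0.627. With shared windows left out of the merged exons it was 1.03 in replicate 1 and 0.852 in replicate 2, so the order of this pair depended on the length. Of the exon bases of *Hdac4*, 3536 overlap the lincRNA *Gm26720* on the opposite strand, and since the strand setting of the counting is not given in the sources used here, reads there cannot be assigned between them. *Gm26720* had 35 and 29 counts. In translated sequence *Hdac4* and *Hdac5* are 63.2% identical, and *Hdac7* is 55.2% identical to *Hdac4* and 52.0% to *Hdac5*. The remaining class IIa gene, *Hdac9*, had 7 and 11 counts, or 0.548 ± 0.183 CPM (SD, n = 2), so its RNA was near the limit of detection.

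*Hdac6*, the tubulin deacetylase, was among the lowest. It lies at chrX:7930120-7947889 on the minus strand and had 250 and 291 counts, or 14.9 and 17.9 CPM, with a mean of 16.4 ± 2.10 CPM and 2.82 ± 0.361 CPM per kb (SD, n = 2). Its class IIb relative *Hdac10* had 371 and 467 counts and 7.53 ± 1.38 CPM per kb (SD, n = 2), so *Hdac6* was at 0.377 ± 0.021 of *Hdac10*. *Hdac11*, the single class IV gene, had 33 and 61 counts, or 2.86 ± 1.26 CPM (SD, n = 2).

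The acetyltransferase *Ep300* was above its paralogue *Crebbp*. *Ep300* (ENSMUSG00000055024.12, chr15:81585351-81652077, plus strand, 31 exons in the principal transcript) had 3797 counts in replicate 1 and 3608 in replicate 2, or 226.9 and 222.1 CPM. Its mean was 224.5 ± 3.42 CPM and 15.7 ± 0.239 CPM per kb (SD, n = 2). *Crebbp* (ENSMUSG00000022521.10, chr16:4081328-4213997, minus strand, also with 31 exons) had 2467 and 2423 counts, or 147.4 and 149.1 CPM, with a mean of 148.3 ± 1.21 CPM and 10.95 ± 0.089 CPM per kb (SD, n = 2). The libraries did not overlap on either scale, and the ratio of *Crebbp* to *Ep300* was 0.685 in replicate 1 and 0.708 in replicate 2 per kb of merged exon. By the principal transcripts, of 10820 and 9566 bases, it was 0.584, and without regard to length it was 0.661, so *Ep300* was the higher by every length tried. The encoded proteins, of 2441 and 2412 residues, are 66.1% identical over 2285 aligned residues, and 0.530% of the 50-base windows of *Crebbp* and 0.035% of those of *Ep300* occur in other genes.

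Of the deacetylase RNA, class I and class IIa made up nearly equal parts. The levels per kb of *Hdac1* to *Hdac11* were summed in each library, and *Hdac7* took 38.5 ± 0.289% of the sum, *Hdac1* 18.9 ± 0.364%, *Hdac2* 14.4 ± 0.378% and *Hdac3* 8.75 ± 0.394% (SD, n = 2). *Hdac5* took 5.12%, *Hdac4* 3.79%, *Hdac6* 2.17% and *Hdac8* 1.94%, and the 3 genes outside the set, *Hdac9*, *Hdac10* and *Hdac11*, took 0.029, 5.78 and 0.567%. Class IIa, whose catalytic codon is CAT, held 47.5 ± 0.122% and class I 44.0 ± 1.01% (SD, n = 2), with *Hdac7* the largest part of class IIa. The order of the classes turned with the length used: by the principal transcripts class I held 48.2% and class IIa 45.1%, and with shared windows left out class I held 58.8% and class IIa 35.8%, since only 822 windows are then left to *Hdac1*.

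**Figure D3:**
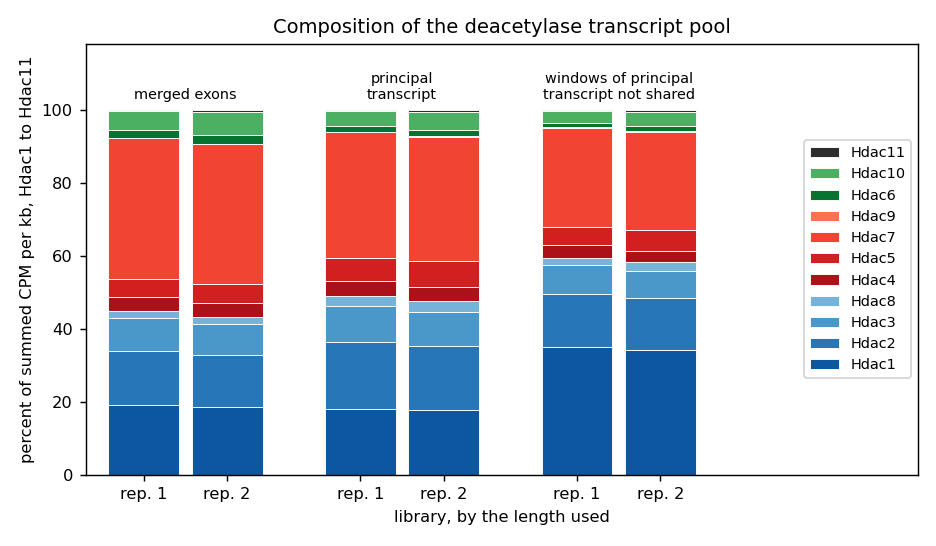
Percent of the summed CPM per kb of *Hdac1* to *Hdac11* taken by each gene in replicates 1 and 2 (stacked bars), with the length of a gene taken as the merged exons, the principal transcript, or the windows of the principal transcript found in no other gene; blue is class I, red class IIa, green class IIb and dark grey class IV. *Hdac7* takes 38.5%, 34.3% and 27.1% under the 3 lengths, and *Hdac1* 18.9%, 17.8% and 34.5%.

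By the principal transcripts the order of the 10 genes was *Hdac7* at 80.0 CPM per kb, *Hdac2* at 41.7, *Hdac1* at 41.5, *Ep300* at 23.5, *Hdac3* at 22.6, *Hdac5* at 15.5, *Crebbp* at 13.7, *Hdac4* at 9.60, *Hdac8* at 6.30 and *Hdac6* at 3.97. The values of *Hdac1* and *Hdac2* overlapped between the libraries, and those of the other neighbours did not. Against the order by merged exons, *Hdac5* moved above *Crebbp* and *Hdac8* above *Hdac6*, and *Hdac7*, *Ep300*, *Hdac3* and *Hdac4* held the same ranks.

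The libraries differed in sex, and the X-linked genes were compared with this in view. The level of *Xist*, whose RNA coats the inactive X, was 2.03 CPM in the first replicate but 1555 CPM in the second, whereas the Y-linked genes *Ddx3y*, *Eif2s3y* and *Kdm5d* had 2450, 1833 and 1304 counts in replicate 1 and 0, 1 and 59 in replicate 2. *Hdac6* and *Hdac8*, both on the X chromosome, were higher in replicate 2 by 0.26 (95% exact interval 0.01 to 0.51) and 0.24 (-0.05 to 0.53) on the log2 scale. Neither passed the test described next, with adjusted p = 0.152 and 0.288 (two-sided exact binomial test), and with 1 library of each sex, sex and the library cannot be told apart. Both differences rest on the totals on genes, by which the median over all genes tested was also higher in replicate 2, by 0.08. With totals from TMM factors that median was -0.0027.

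Between the libraries, *Hdac5* and *Hdac7* were the only ones of the 10 genes to differ beyond counting error, both slightly. Counts were compared by a two-sided exact binomial test against the library totals, with Benjamini-Hochberg adjustment over 15949 genes with at least 10 summed counts. It sets these 2 libraries against each other, not conditions. Of all genes tested, 2596 (16.3%) differed at an adjusted p under 0.05, of which 2146 were higher in replicate 2. With totals from TMM factors 1688 genes differed, and 48.1% of these were higher in replicate 2 in place of 82.7%. At the depth of the 10 genes, with summed counts from 402 to 11134, 23.4% of 7872 genes differed, so 2 of 10 is near the background. *Hdac5* was higher in replicate 2 by 0.26 on the log2 scale (95% exact interval 0.13 to 0.40, adjusted p = 0.000938, exact binomial test), and *Hdac7* by 0.09 (0.04 to 0.15, adjusted p = 0.00607, exact binomial test). With TMM totals *Hdac5* still passed, with a log2 difference of 0.19 and adjusted p = 0.0482 (exact binomial test), *Hdac7* did not, with 0.02 and adjusted p = 0.815, and *Ep300* passed as lower in replicate 2 by the exact binomial test, with -0.11 and adjusted p = 0.015. At least 2-fold differences were met by 242 genes (1.52%) and by 0 of the 10. With edgeR's exact test, given a biological variation (BCV) of 0.1 between samples, 74 genes differed and again 0 of the 10.

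The 8 remaining genes did not pass this test, and the intervals show how large a difference the depth could hide. *Crebbp* and *Ep300* had log2 differences of 0.02 (95% exact interval -0.06 to 0.10) and -0.03 (-0.10 to 0.04), *Hdac3* 0.02 (-0.13 to 0.17) and *Hdac4* -0.01 (-0.13 to 0.10). *Hdac1* and *Hdac2* had 0.07 (-0.04 to 0.18) and 0.06 (-0.05 to 0.16). The median log2 difference of the 10 genes was 0.06, beside 0.08 over all genes tested, and the median size regardless of sign was 0.06, beside 0.11 for genes of the same range of counts. Of the 3 related genes, *Hdac10* passed with a log2 difference of 0.37 and adjusted p = 0.00248 (exact binomial test), and *Hdac11* with 0.93 and adjusted p = 0.0209 (exact binomial test), which was lost with TMM totals.

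**Figure D4:**
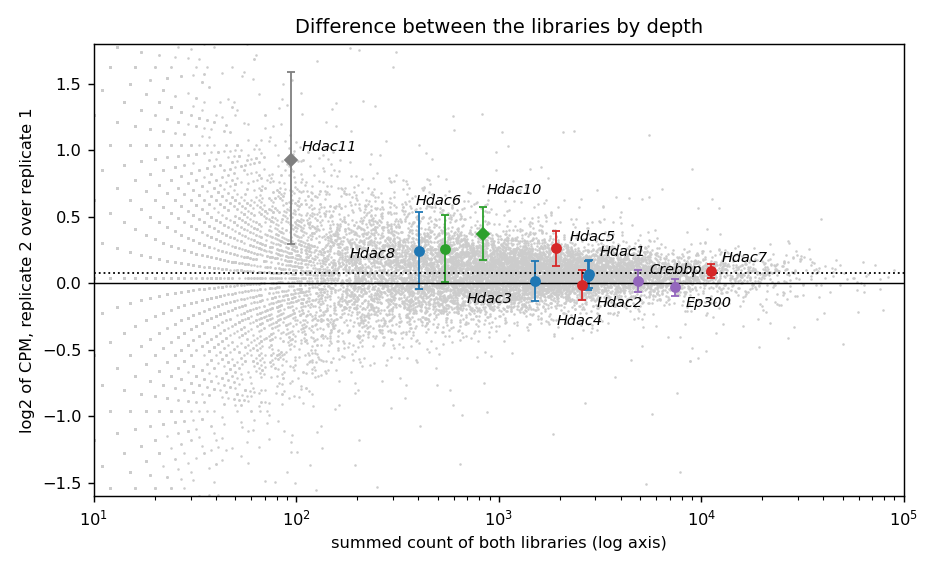
Log2 of CPM in replicate 2 over replicate 1 against the summed count (log axis) for all genes tested (grey; values outside the axes are not drawn), with the 10 genes as circles, *Hdac10* and *Hdac11* as diamonds and 95% exact binomial intervals as bars; the dotted line is the median of all genes, 0.08. Circles lie between -0.03 and 0.26, and the intervals of *Hdac5*, *Hdac6* and *Hdac7* lie above 0, of which *Hdac6* did not pass after adjustment and *Hdac7* did not with TMM totals.

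The corepressor complexes built on these enzymes were well represented, NuRD most of all. NuRD joins HDAC1 or HDAC2 to a chromatin remodeller. Its remodeller genes *Chd3* and *Chd4* were at 106 ± 12.8 and 94.7 ± 5.89 CPM per kb of merged exon (SD, n = 2). By this length both were above every one of the 10 genes, and *Mta2*, a scaffold that binds the deacetylase, was at 69.3 CPM per kb. Genes of this and the following lists are given by merged exons alone. Their order against the 10 genes by other lengths is not reported here. All 9 NuRD genes were above the median protein-coding gene, with a median of 42.9 CPM per kb. In the Sin3 list of 14 genes the median was 11.4, led by the histone chaperone *Rbbp7* at 53.5 CPM per kb, which NuRD also contains. In the CoREST list of 6 genes the scaffolds were unequal: *Rcor1* was at 20.2 CPM per kb, *Rcor2* at 0.925 and *Rcor3* at 0.989, and the demethylase *Kdm1a* was at 16.7. Of the HDAC3 complex, the scaffold *Ncor1* was at 39.8 CPM per kb and *Gps2* at 34.8. The MiDAC complex, which also holds HDAC1 or HDAC2, had *Elmsan1* at 23.0, *Dnttip1* at 15.9 and *Trerf1* at 2.18 CPM per kb.

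The genes that control and receive class IIa deacetylases were present with marked differences between paralogues. Of 7 kinases able to phosphorylate these enzymes, *Prkd2*, which encodes protein kinase D2, was the highest at 49.9 CPM per kb, followed by *Camk4* at 32.8 and *Prkd3* at 11.6, while *Prkd1* had 0 counts in both libraries, which allows at most 0.179 and 0.185 CPM. *Sik1*, *Sik2* and *Sik3* were at 2.78, 4.04 and 9.14 CPM per kb. Among MEF2 factors, the target of the class IIa enzymes, *Mef2d* was at 40.5 and *Mef2a* at 9.40 CPM per kb, and *Mef2b* and *Mef2c* had 0 counts. *Nr4a1*, the gene that HDAC7 and MEF2D are known to hold down in thymocytes, was at 40.7 ± 0.523 CPM, or 11.6 CPM per kb (SD, n = 2). All 6 genes for 14-3-3 proteins were at 23.9 CPM per kb or above, with *Ywhaz* at 143.

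The enzymes that oppose HDAC6 and HDAC8 were unequal. *Esco1*, which acetylates SMC3, was at 16.9 CPM per kb, and *Esco2*, which does so mainly in S phase, at 0.314. *Atat1*, the tubulin acetyltransferase, was at 1.18 CPM per kb of merged exon, and *Hdac6* was higher by this length, at 2.82.

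On the acetylation side, 2 other lysine acetyltransferases had higher levels per kb of merged exon than CBP and p300. *Kat6a* was at 33.9 and *Kat2a* at 27.8 CPM per kb, both above *Ep300* at 15.7, while *Kat6b*, the paralogue of *Kat6a*, was at 2.73. Of 13 genes for partners of CBP and p300, the coactivator *Ncoa3* was highest at 22.3 CPM per kb, with *Atf1* at 20.3 and *Cited2* at 18.6, and *Creb1*, whose phosphorylated product recruits CBP, was at 12.3. *Cited4* was at 0.579 CPM and *Cited1* had 1 count in all. Of the bromodomain proteins that bind acetylated histones, *Brd2* was at 44.6 and *Brd3* at 8.43 CPM per kb, and the testis gene *Brdt* was at 0.231. Among the NAD-dependent sirtuins, *Sirt7* led at 27.6 CPM per kb, and the other 6 lay between 1.14 and 9.06.

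**Figure D5:**
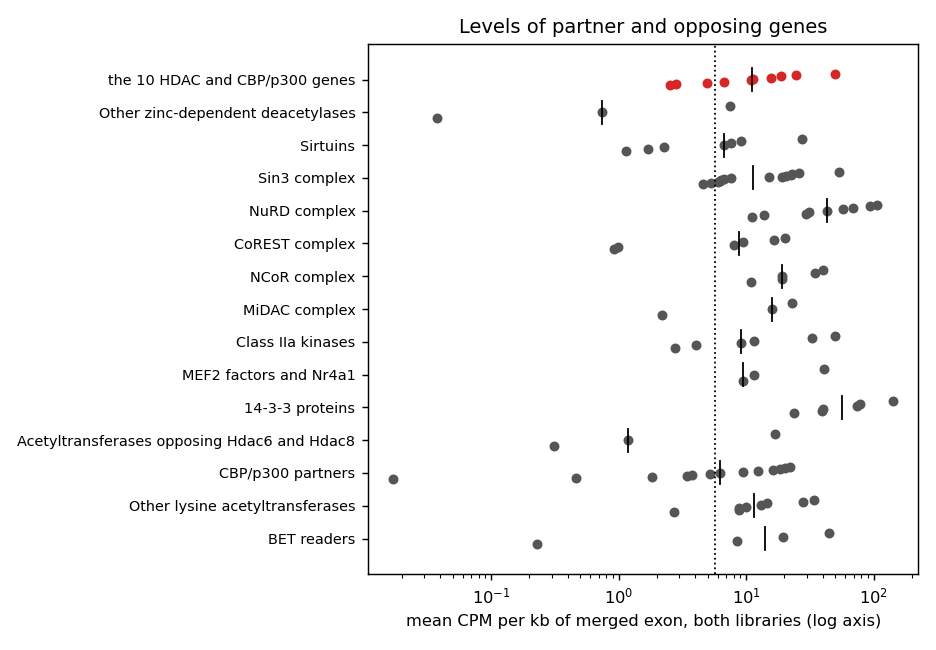
Mean level over both libraries in CPM per kb of merged exon (log axis) of the 10 genes (red) and of each list of partner or opposing genes (grey points, with a bar at the median of the list; *Prkd1*, *Mef2b* and *Mef2c*, with 0 counts, are not drawn). The dotted line is the median protein-coding gene, 5.71 CPM per kb, and the NuRD and 14-3-3 lists, with medians of 42.9 and 56.7, lie above it entirely.

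Over these lists, 26 of the 89 genes tested differed between the libraries by the exact binomial test, all higher in replicate 2, beside the 16.3% of all genes and the 23.4% at the depth of the 10 genes. This one-sided split did not hold with TMM totals, when 8 were higher and 8 lower. It was kept in part with DESeq2 size factors, when 14 were higher and 4 lower. With totals without mitochondrial and ribosomal RNA genes, 15 were higher and 4 lower. By list, 5 of 9 NuRD genes, 4 of 6 CoREST genes, 2 of 14 Sin3 genes, 0 of 3 MiDAC genes, 1 of 6 kinases, 1 of 3 MEF2 and *Nr4a1* genes, 1 of 6 genes for 14-3-3 proteins, 3 of 12 partners of CBP and p300, 2 of 8 other acetyltransferases, 2 of 4 bromodomain genes, 1 of 7 sirtuins and 0 of 3 opposing acetyltransferases passed, as did *Hdac10* and *Hdac11*. With TMM totals 1 NuRD gene (*Chd3*) and 2 CoREST genes passed, *Phf21a* as higher and *Rcor3* as lower in replicate 2. With DESeq2 size factors 3 NuRD genes passed (*Mta1*, *Chd3* and *Chd4*), all higher in replicate 2, and the same 2 CoREST genes. *Myb*, a transcription factor that recruits p300, was the single gene of the lists to pass the test with a difference of at least 2-fold, which it met narrowly with totals on genes but not with TMM totals, DESeq2 size factors or totals without mitochondrial and ribosomal RNA genes, where its log2 difference was 0.96, 0.97 and 0.98. Its counts were 372 and 740 in replicates 1 and 2, or 22.2 and 45.6 CPM, a log2 difference of 1.03 (95% exact interval 0.85 to 1.22), with adjusted p = 0.0019 by edgeR's exact test at a BCV of 0.1. *Mef2a* differed by 0.44 on the log2 scale, from 117.1 to 158.7 CPM, and with edgeR's exact test its adjusted p was 0.893. Whether the sex of the mice bears on *Myb* or *Mef2a* was not tested.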

How the data were processed

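Libraries of 2 replicates of MHC-II0:CD8ab Tg CD4- mature thymocytes were analysed. Per the labels, reads were single-end and 50 bases long. The authors isolated poly(A) RNA, mapped the reads onto mm10 with TopHat2 2.1.1 and used HTSeq 0.6.1 to obtain, for each gene, the raw count that was deposited, not normalized. Annotation and strand setting of the counting are not given in the sources used here. From these counts, CPM of the total on genes (lines for unassigned reads excluded, which hold 55.9% of uniquely aligned reads assigned to no gene), CPM per kb, shares and ratios were computed with mean and SD. Lengths, transcripts and coordinates came from GENCODE M21, in which 46294 of 48321 symbols were found once. Coding sequences were translated and aligned with MAFFT 7.526 (identity with Biopython 1.88). Libraries were compared by a two-sided exact binomial test (scipy 1.17.1, statsmodels 0.14.6) on genes with at least 10 summed counts, called at an adjusted p under 0.05. The test was tried on simulated counts that held counting error alone, which cannot show how it behaves with variation between mice. Alternatives were TMM (edgeR 4.0.16) and DESeq2 1.42.0 size factors, totals without 393 mitochondrial and ribosomal RNA genes, minimum counts of 1 and 100, edgeR's exact test with the coefficient of variation set to 0.1, and other lengths. With 1 group, no condition was tested, and nothing states that the samples came from separate mice beyond their sex-linked genes, so the spread may be technical in part. Members and gene lists were chosen with earlier results of these data known. Genes named are the 10 members and, in each list, the 3 highest per kb, those under 1 CPM, those that differed between libraries, and partners or paralogues of members. Some genes of these lists are not reported here.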

Additional observations from a re-analysis of the deposited data

How the results depend on the processing

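No paired analysis was possible because there is a single group, so no group shares replicate numbers with another. Lengths of the longest transcript, of merged exons without shared windows, of the principal transcript, and of the principal transcript without shared windows gave, in this order, shares of 35.4, 34.5, 34.3 and 27.1% for *Hdac7* (38.5% as reported), 46.4, 48.8, 48.2 and 58.8% for class I (44.0%), and 46.5, 43.5, 45.1 and 35.8% for class IIa (47.5%). The ratio of *Hdac1* to *Hdac2* became 1.61, 2.04, 0.995 and 2.41 (1.31 as reported), and that of *Crebbp* to *Ep300* 0.584, 0.700, 0.584 and 0.583 (0.696). Both lengths by principal transcript were chosen after seeing the data. With 2 libraries, leaving out either one only returns the value of the other, so it says nothing about stability.

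In place of 2596 genes, 1688 differed between the libraries with TMM totals and 74 with edgeR's exact test, not all of them the same (*Ep300* passed only with TMM totals). At least 2-fold differences numbered 55 with a minimum of 100 counts and 60 with edgeR's exact test, in place of 242. Of the 10 genes, 1 differed (*Hdac5*) with DESeq2 size factors or with totals without mitochondrial and ribosomal RNA genes, and 0 with edgeR's exact test, in place of 2. The share of differing genes that were higher in replicate 2 fell from 82.7% to 57.3% with DESeq2 size factors and 59.9% with totals without mitochondrial and ribosomal RNA genes. *Hdac7* lost its call under all 4 of these settings, TMM and edgeR's exact test included, with adjusted p from 0.449 to 1.0, and *Hdac5* under edgeR's exact test. CPM of 10 of 13 deacetylase and acetyltransferase genes moved by more than the SD with totals without mitochondrial and ribosomal RNA genes. These totals are smaller, at 14053032 in replicate 1 and 14192359 in replicate 2, which raises the CPM of every remaining gene. The move therefore follows from the change of scale and says nothing about single genes. Depth limits *Hdac9* and *Hdac11*, and 2 libraries limit every SD.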
